A study of Mus musculus with 12 samples.

Results

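The guanylate-binding proteins (GBPs) were followed in tumor-associated macrophages (TAMs) sorted from subcutaneous B16-F10 melanomas of mice. Members were the rows of the count tables with the symbols Gbp2, Gbp2b, Gbp3, Gbp4, Gbp5, Gbp6, Gbp7, Gbp8, Gbp9 and Gbp10, which gave 10 genes of the 55401 listed. They were chosen by symbol, and measured counts were selected on only where a symbol stood on several rows, which was the case for no member. The family was proposed with its levels in these libraries known. TAMs of AMPKfl/fl mice (WT, n = 3) were compared with TAMs of AMPKfl/flLyz2cre/cre mice (AMPK-KO, n = 3), all at day 15 after implantation. In a second experiment, TAMs from late-stage tumors (day 15, n = 3) were compared with TAMs from early-stage tumors (day 8, n = 3), both of genotype WT. Both arms of the first experiment thus carried the floxed AMPK alleles, and no sample was treated. The genotype fields of AMPK-KO replicates 2 and 3 read AMPKfl/flLyz3cre/cre and AMPKfl/flLyz4cre/cre, while their titles read Lyz2cre/cre. Lyz2-driven Cre acts in monocytes and neutrophils as well as in macrophages. All mice had a C57BL/6 background and were 5 weeks old, and the methods name female mice. The labels do not say whether replicates came from separate animals, so p-values measure only the spread between these samples.

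GBPs are large GTPases of the dynamin superfamily that are among the genes most strongly induced by interferon gamma (IFN-γ). The cytokine binds its receptor (Ifngr1, Ifngr2), the kinases Jak1 and Jak2 pass the signal on, and target promoters answer through GAS elements or through ISRE elements, which are bound by induced factors such as Irf1. In macrophages, GBPs coat the vacuoles or membranes of intracellular pathogens and promote caspase-11 and inflammasome responses, together with the immunity-related GTPases (IRGs). In mice the family lies in a cluster on chromosome 3 and another on chromosome 5.

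By the GENCODE M21 annotation of GRCm38, the chromosome 3 cluster held 5 members, all protein-coding and on the plus strand. They were Gbp5 (chr3:142493978-142522344), Gbp7 (chr3:142530342-142550149), Gbp3 (chr3:142560026-142573209), Gbp2b (chr3:142594847-142619179) and Gbp2 (chr3:142620602-142638008). The chromosome 5 cluster held the other 5, all protein-coding and on the minus strand. They were Gbp8 (chr5:105014150-105139540), Gbp9 (chr5:105077630-105139539), Gbp4 (chr5:105115767-105139586), Gbp10 (chr5:105215699-105239533) and Gbp6 (chr5:105270702-105293698).

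RefSeq promoter windows (GRCm38.p6, 250 bases before the annotated start) were matched by symbol for 5 members, those of chromosome 3. Gbp4, Gbp6, Gbp8, Gbp9 and Gbp10 had no matched entry. The windows are shown because all 5 genes changed in AMPK-KO TAMs. They were searched on both strands for the GAS core TTCNNNGAA and for the ISRE core, GAAA and GAAA set 2 bases apart, which reads TTTC and TTTC on the other strand. Matches are in capitals, and each window is printed 5′ to 3′ on the plus strand without most transcribed bases:

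Gbp5 (chr3:142496684-142496929): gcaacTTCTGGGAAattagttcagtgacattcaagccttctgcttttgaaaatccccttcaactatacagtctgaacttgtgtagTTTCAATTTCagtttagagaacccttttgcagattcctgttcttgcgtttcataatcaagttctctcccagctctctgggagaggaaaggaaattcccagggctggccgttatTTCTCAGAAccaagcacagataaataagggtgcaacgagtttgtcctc
Gbp7 (chr3:142530086-142530335): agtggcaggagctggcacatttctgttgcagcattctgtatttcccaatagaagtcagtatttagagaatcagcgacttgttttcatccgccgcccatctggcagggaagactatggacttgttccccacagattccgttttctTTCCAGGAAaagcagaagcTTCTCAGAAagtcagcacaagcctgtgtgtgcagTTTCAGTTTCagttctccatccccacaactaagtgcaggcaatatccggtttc
Gbp3 (chr3:142559794-142560043): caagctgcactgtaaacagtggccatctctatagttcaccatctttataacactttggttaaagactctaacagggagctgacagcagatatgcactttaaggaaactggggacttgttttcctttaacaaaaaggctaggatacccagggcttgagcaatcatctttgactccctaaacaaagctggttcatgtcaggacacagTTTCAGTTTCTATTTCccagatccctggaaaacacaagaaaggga
Gbp2b (chr3:142594597-142594846): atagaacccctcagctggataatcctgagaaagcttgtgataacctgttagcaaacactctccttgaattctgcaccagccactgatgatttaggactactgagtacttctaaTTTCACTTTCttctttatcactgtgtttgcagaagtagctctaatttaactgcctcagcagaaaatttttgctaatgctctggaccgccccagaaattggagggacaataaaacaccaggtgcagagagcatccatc
Gbp2 (chr3:142620413-142620631): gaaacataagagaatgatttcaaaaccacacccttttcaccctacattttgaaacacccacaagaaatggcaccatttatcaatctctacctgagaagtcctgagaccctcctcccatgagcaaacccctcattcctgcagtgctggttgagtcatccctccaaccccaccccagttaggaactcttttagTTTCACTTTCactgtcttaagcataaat

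All 5 genes held at least 1 ISRE core, against 3.463% of the 27025 genes with a window. Positions were counted from the RefSeq starts, which lie inside the GENCODE spans given above for Gbp5 (start 142496934), Gbp3 (142560044) and Gbp2 (142620663), so that the Gbp2 match and the whole Gbp5 window fall within the annotated gene. In Gbp7 the ISRE core began 53 bases before the start, in Gbp2 59, in Gbp2b 137 and in Gbp5 165, and Gbp3 held a pair of overlapping matches at 45 and 39. Gbp5 and Gbp7 also held 2 GAS cores each, against 8.13% of all genes with at least 1. Both motifs together were found in 0.459% of all genes. A second RefSeq window of Gbp3 held neither motif. These matches describe the letters of the windows and were not measurements of binding. The genes are related neighbors, and the motifs were chosen as elements of interferon target promoters. The shares of all genes are therefore no test.

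All 10 members were detected in every library and passed the filter on low counts in both experiments. Library totals ranged from 71019494 to 81671067 counts for WT and AMPK-KO and from 77155066 to 84470374 for early- and late-stage TAMs. Levels are given as counts per 1000000 counts of the library (CPM) scaled by TMM, and tests are edgeR's quasi-likelihood test with Benjamini-Hochberg adjustment over all genes of a table that passed the filter. The targeted catalytic subunit gene Prkaa1 was lower in AMPK-KO (log2 fold change -0.60, adjusted p = 2.3e-04), with 3285 to 3467 counts against 4535 to 5165 in WT. Lyz2, the gene that carries the Cre insertion, had 671 to 975 counts in WT and 676 to 1088 in AMPK-KO, against 88212 to 249165 in the early- and late-stage libraries. The libraries labelled AMPKfl/fl were thus as low in Lyz2 as those labelled Lyz2cre/cre, and the cause was not tested. The macrophage markers Adgre1, which encodes F4/80, and Csf1r were abundant in all groups, with mean CPM of 865 to 971 and 942 to 1334. The neutrophil marker Ly6g had at most 5 counts in a library, but the 6 neutrophil markers together had 95.1 to 102 CPM in WT and 158 to 161 in AMPK-KO. Itgam and Ly6c2, whose products are also in the sorting gate, were higher in AMPK-KO (log2 fold change 0.55, adjusted p = 3.4e-05, and 1.19, adjusted p = 3.4e-06). In late-stage TAMs Ly6c2 was lower (-1.84, adjusted p = 4.8e-05) and Itgam did not pass (0.05). The summed CPM of 4 Y-linked genes was 128 to 153 in WT and AMPK-KO, 41.5 to 48.8 in early-stage and at or next to 0 in late-stage TAMs, which goes against the female mice named in the methods for all groups but the late stage, and sex and tumor stage cannot be told apart in the second experiment.

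All 10 GBPs were higher in AMPK-KO than in WT TAMs, with log2 fold changes from 0.81 for Gbp7 to 2.34 for Gbp2b, and 9 of them exceeded a log2 fold change of 1. Of all 17532 genes tested, 11.3% were higher at an adjusted p under 0.05, and 2.05% were higher with a log2 fold change above 1. The median log2 fold change of the members was 1.18, against -0.004 over all genes tested. No library of one genotype overlapped those of the other for any member, which was the case in this direction for 18.8% of the genes tested. In bulk samples, more cells of a type and more RNA per cell cannot be told apart.

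**Figure D1:**
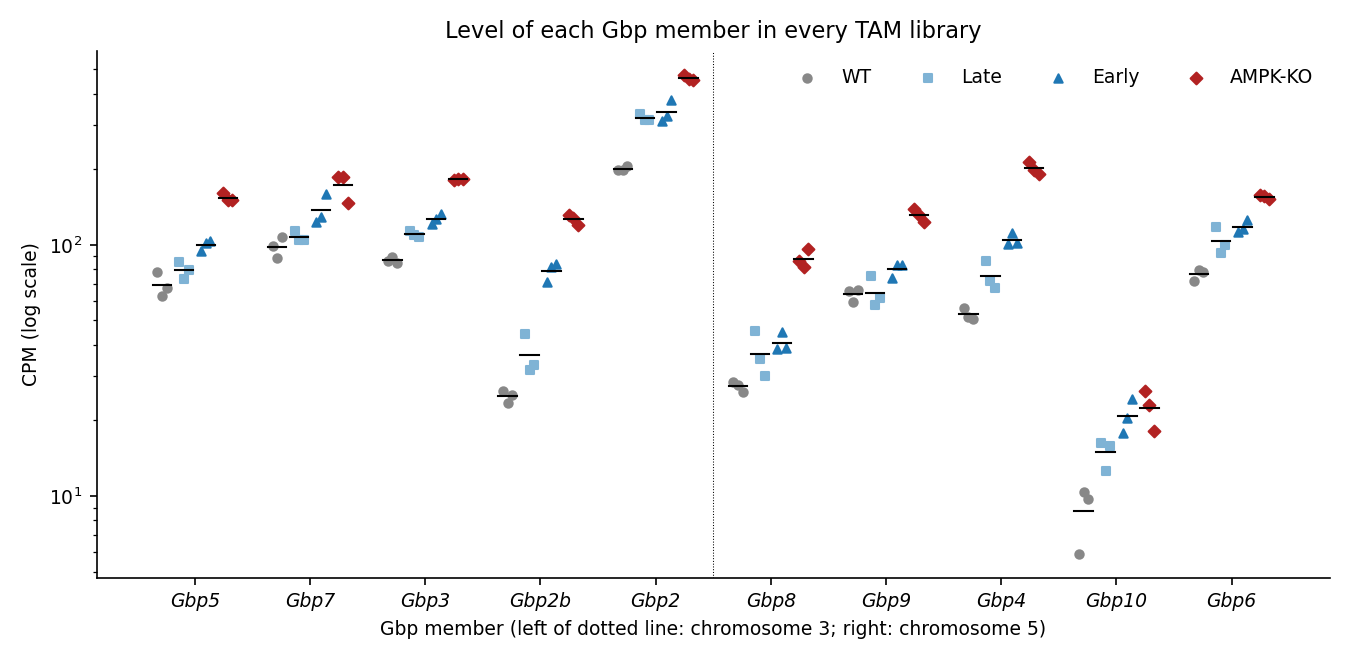
CPM (log axis) of the 10 GBPs in each of the 12 libraries, with points for libraries and lines for group means (WT, late-stage, early-stage and AMPK-KO from left to right within each gene, 3 libraries each). For every member the AMPK-KO points lie above the WT points, and Gbp2 is the highest and Gbp10 the lowest member in CPM in each group.

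The GBPs that carry a C-terminal lipid anchor signal were described first. Gbp2b, the gene long called Gbp1 in mice, stood at 26.2, 23.4 and 25.2 CPM in WT and at 131, 128 and 120 CPM in AMPK-KO. The means were 24.9 ± 1.43 and 126 ± 5.89 (SD, n = 3), a 5.07-fold difference (log2 fold change 2.34, SE 0.07, adjusted p = 3.0e-08). Its p-value ranked 3 among all genes tested. Gbp2, which is required for the control of several vacuolar pathogens, stood at 198, 198 and 206 CPM in WT and at 476, 458 and 451 CPM in AMPK-KO. The difference was 2.30-fold (log2 fold change 1.20, SE 0.04, adjusted p = 1.2e-07), and the 3 libraries of each genotype lay close together. Gbp5, known for promoting NLRP3 inflammasome assembly, stood at 78.0, 62.5 and 67.6 CPM in WT and at 161, 151 and 151 CPM in AMPK-KO. It rose 2.22-fold (log2 fold change 1.15, SE 0.08, adjusted p = 4.1e-06), with WT replicate 1 the highest of the WT libraries.

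The other members of the chromosome 3 cluster rose less than Gbp2b. Gbp3 stood at 86.4, 89.6 and 84.6 CPM in WT and at 181, 182 and 183 CPM in AMPK-KO, and rose 2.10-fold (1.07 on the log2 scale, SE 0.05, adjusted p = 3.3e-07). Gbp7, linked to assembly of the phagocyte NADPH oxidase, stood at 99.0, 88.9 and 107 CPM in WT and at 186, 185 and 147 CPM in AMPK-KO. It had the smallest rise of the family (log2 fold change 0.81, SE 0.10, adjusted p = 2.0e-04), and AMPK-KO replicate 3 lay nearest to WT.

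On chromosome 5, Gbp4, which has been described as a negative regulator of Irf7, rose from 56.1, 51.5 and 50.9 CPM in WT to 214, 199 and 191 CPM in AMPK-KO. This was the second-ranking fold change of the members (3.81-fold, log2 fold change 1.93, SE 0.06, adjusted p = 4.3e-08). Gbp8, a less studied member, stood at 28.4, 27.8 and 26.1 CPM in WT and at 86.0, 81.2 and 96.7 CPM in AMPK-KO (log2 fold change 1.68, SE 0.08, adjusted p = 3.3e-07). Both lay far above the WT libraries in every AMPK-KO library. Gbp9 stood at 65.5, 59.2 and 66.4 CPM in WT and at 139, 132 and 124 CPM in AMPK-KO (log2 fold change 1.04, SE 0.07, adjusted p = 2.4e-06). Gbp6, which contributes to host defence against bacteria, stood at 71.8, 79.4 and 77.9 CPM in WT and at 158, 156 and 152 CPM in AMPK-KO (log2 fold change 1.03, SE 0.05, adjusted p = 9.5e-07). Gbp10 was the lowest and most variable member, at 5.89, 10.4 and 9.78 CPM in WT and 26.1, 23.0 and 18.2 CPM in AMPK-KO (log2 fold change 1.37, SE 0.20, adjusted p = 8.4e-04).

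Gbp6 and Gbp10 are uncertain as separate genes. Their longest coding sequences were 98.4% identical, and 64.5% of the 100-base stretches of Gbp6 transcripts and 73.5% of those of Gbp10 occurred in another gene, mostly in each other or in Gm43302, a gene model whose exons overlap both. Gm43302 rose as well, with 30.9, 21.6 and 18.6 CPM in WT and 57.0, 59.3 and 54.0 CPM in AMPK-KO (1.26 on the log2 scale, adjusted p = 2.2e-04). With the counts of all 3 summed, the log2 fold change was 1.11 (SE 0.05, adjusted p = 3.3e-07). The other members shared at most 10% of such stretches with any other gene, and Gbp2b and Gbp2 shared none although their coding sequences were 82.5% identical. The models of Gbp4, Gbp8 and Gbp9 overlapped by 60 or 61 exonic bases.

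Outside the member list, Gbp11 is annotated as a polymorphic pseudogene of the chromosome 5 cluster. It had 16, 18 and 47 counts in WT and 155, 178 and 107 in AMPK-KO (log2 fold change 2.41, SE 0.42, adjusted p = 0.0024). Gbp2-ps, a pseudogene of the chromosome 3 cluster, had no count in any of the 12 libraries.

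**Figure D2:**
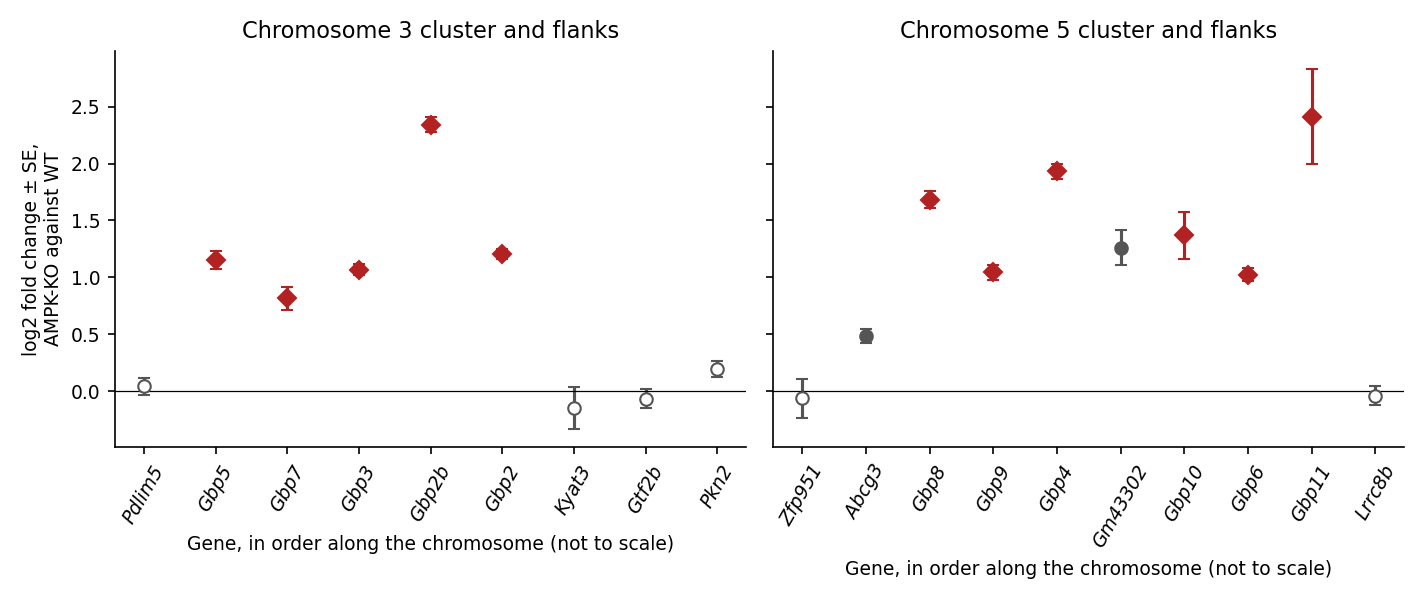
Log2 fold change ± SE (AMPK-KO against WT) of the tested protein-coding genes and Gbp11 in both clusters and within 200 kb, in chromosome order but not to scale, with GBPs as red diamonds, other genes as grey circles and open symbols for an adjusted p of 0.05 or more. The GBPs of chromosome 3 stand above 4 flanking genes that lie between -0.15 and 0.20, and on chromosome 5 Abcg3 and Gm43302 are also filled.

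The genes around the clusters were compared within 200 kb of the outermost members. On chromosome 3, Pdlim5, Kyat3, Gtf2b and Pkn2 had log2 fold changes from -0.15 to 0.20, with adjusted p from 0.0857 to 0.760. On chromosome 5, the transporter gene Abcg3 rose (log2 fold change 0.49, SE 0.06, adjusted p = 2.6e-04), while Zfp951 (-0.06) and Lrrc8b (-0.04) did not pass. The lincRNA Gm32051 was lower (log2 fold change -4.03, SE 1.00, adjusted p = 0.0160) on few counts. The median log2 fold change of the 5 members was 1.15 on chromosome 3 and 1.37 on chromosome 5.

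The summed level of the 10 members was 715, 691 and 721 CPM in WT and 1758, 1696 and 1634 CPM in AMPK-KO, a 2.39-fold difference of the means (709 ± 16.2 against 1696 ± 62.1, SD, n = 3). GBPs made up 0.0708% of WT counts and 0.170% of AMPK-KO counts. Per kilobase of exon (RPKM, over the union of annotated exons), Gbp2 held the largest share of the family, 43.0 ± 0.553% in WT and 41.0 ± 0.267% in AMPK-KO. The mean share of Gbp2b was 4.76% in WT and 9.99% in AMPK-KO, and that of Gbp4 was 3.801% and 5.999%. Gbp7 held 9.44% in WT and 6.87% in AMPK-KO. In RPKM, Gbp2b therefore ranked below Gbp2, Gbp3, Gbp5, Gbp6, Gbp7 and Gbp9 in WT (8.83 ± 0.507) and below Gbp2 and Gbp3 alone in AMPK-KO (44.7 ± 2.09).

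In late-stage against early-stage TAMs the log2 fold changes of the family were below 0. Gbp2b, Gbp4 and Gbp5 were lower in late-stage TAMs, 3 of 10 members, while 4.88% of the 17630 genes tested were lower. Gbp2b was the only member with a log2 fold change below -1, which 1.26% of the genes tested reached. All 10 members had a negative log2 fold change, as did 49.6% of the genes tested, and their median was -0.32 against 0.003 over all genes. For 6 members all late-stage libraries lay below all early-stage libraries, as for 15.6% of the genes tested.

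**Figure D3:**
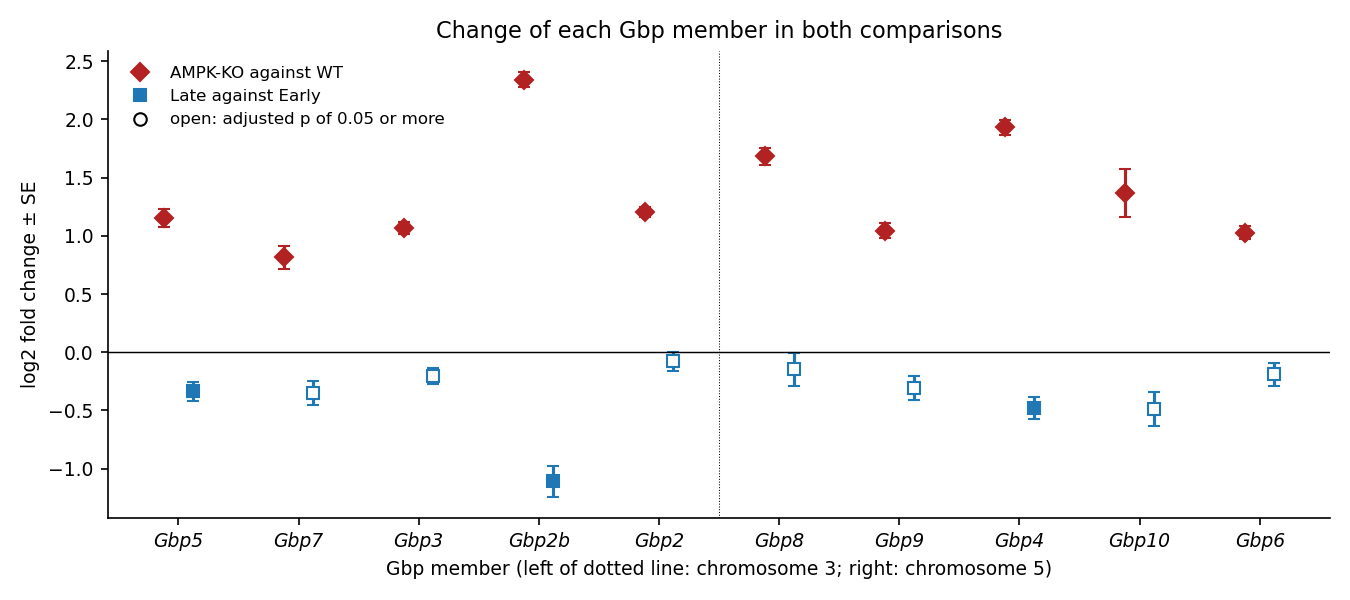
Log2 fold change ± SE of each GBP in AMPK-KO against WT (red diamonds) and in late- against early-stage TAMs (blue squares), with open symbols for an adjusted p of 0.05 or more and n = 3 per group. All red points lie between 0.81 and 2.34, all blue points lie below 0, and Gbp2b is the farthest from 0 in both comparisons.

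Gbp2b stood at 70.9, 81.3 and 83.6 CPM in early-stage TAMs and at 44.3, 31.7 and 33.2 CPM in late-stage TAMs. It was 2.16-fold lower late (log2 fold change -1.11, SE 0.13, adjusted p = 7.6e-04), and no library of one stage reached the other. Gbp4 stood at 101, 111 and 102 CPM early and at 85.9, 72.0 and 67.6 CPM late (log2 fold change -0.48, SE 0.10, adjusted p = 0.0155). Gbp5 stood at 94.8, 102 and 103 CPM early and at 85.2, 73.2 and 79.1 CPM late (log2 fold change -0.34, SE 0.08, adjusted p = 0.0306). The groups did not overlap for either gene. Without early-stage replicate 2, late-stage replicate 2 or late-stage replicate 3, Gbp2b was the only member called, with 1 of 10, while 2.06%, 2.01% and 2.17% of all genes tested were lower in those fits. The log2 fold changes there were -0.43, -0.45 and -0.41 for Gbp4 and -0.33, -0.28 and -0.34 for Gbp5. Without early-stage replicate 1, 6 members and 7.19% of all genes were lower.

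The 7 members that did not pass ranged from -0.49 to -0.08. Gbp2 stood at 312, 327 and 377 CPM early and at 333, 315 and 315 CPM late (log2 fold change -0.08, SE 0.08, adjusted p = 0.620), and the groups overlapped. Without early-stage replicate 3 its log2 fold change was 0.0049. Gbp8 (-0.15, SE 0.14), Gbp6 (-0.19, SE 0.10) and Gbp9 (-0.31, SE 0.11) also had overlapping groups, with late-stage replicate 1 the highest late library of each. Gbp3 (-0.20, SE 0.07), Gbp7 (-0.35, SE 0.10) and Gbp10 (-0.49, SE 0.15) had no overlap, with adjusted p of 0.107, 0.0618 and 0.0681. Gbp6, Gbp10 and Gm43302 summed gave a log2 fold change of -0.16 (adjusted p = 0.290). Around the clusters, Pdlim5 alone was lower (log2 fold change -0.44, adjusted p = 0.0260), and its call was lost without early-stage replicate 2 or any late-stage replicate (adjusted p of 0.0970 to 0.111).

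The summed level of the members was 1065, 1140 and 1230 CPM in early-stage and 1030, 904 and 914 CPM in late-stage TAMs, and the groups overlapped when CPM were taken without TMM factors. Gbp2b counts relative to Gbp2 counts, a ratio chosen after the values were seen, were 0.227, 0.248 and 0.222 early and 0.133, 0.101 and 0.106 late. The same ratio was 0.132, 0.118 and 0.123 in WT and 0.276, 0.279 and 0.265 in AMPK-KO. Late-stage and WT libraries thus held the low ratios and early-stage and AMPK-KO libraries the high ones. The share of Gbp2b in the family RPKM was 9.06% early and 4.94% late, and that of Gbp2 43.8% and 49.2%.

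**Figure D4:**
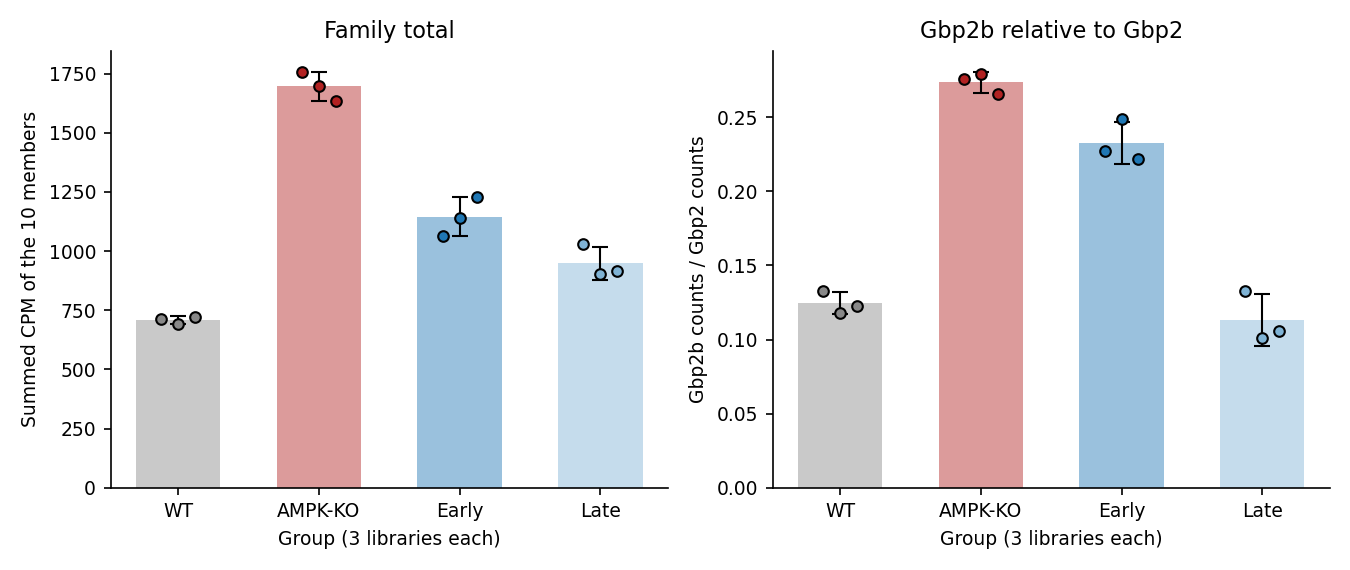
Summed CPM of the 10 GBPs (left) and Gbp2b counts divided by Gbp2 counts (right) in each group, with bars for the mean, error bars for the SD and points for the 3 libraries. The AMPK-KO total of 1696 is the highest, and the ratios of AMPK-KO and early-stage libraries, 0.222 to 0.279, lie above those of WT and late-stage libraries, 0.101 to 0.133.

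Set side by side over both experiments, whose tables were scaled separately, every member had its lowest mean in WT, followed by late-stage, early-stage and AMPK-KO TAMs. For Gbp2b the means were 24.9, 36.4, 78.6 and 126 CPM, with no overlap between neighbours in that order. Gbp3 (86.9, 110, 127 and 182 CPM) and Gbp4 (52.8, 75.2, 105 and 201 CPM) were likewise separated at each step. WT and late-stage libraries overlapped for 3 members, late- and early-stage libraries for 4, and early-stage and AMPK-KO libraries for 2. Gbp10 was among the latter, with 17.9 to 24.4 CPM early and 18.2 to 26.1 CPM in AMPK-KO. The order was not tested, since WT and AMPK-KO libraries came from the first experiment and early- and late-stage libraries from the second. Tumor day and the levels of Y-linked genes also differed between groups.

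The upstream pathway was described by a list of 15 genes of IFN-γ signaling. In AMPK-KO TAMs 13 of 15 were higher and 0 lower, with a median log2 fold change of 0.45. Of all genes tested, 11.3% were higher and 9.78% lower in AMPK-KO, and 4.31% were higher and 4.88% lower in late-stage TAMs. These shares stand beside the counts of every list below. Ifng itself, the ligand, made mainly by T and NK cells, was low but higher in AMPK-KO, at 9.58 ± 0.674 CPM against 2.83 ± 0.814 (log2 fold change 1.76, SE 0.20, adjusted p = 1.5e-04). The receptor chain Ifngr1 rose (0.37, adjusted p = 2.4e-04), and Ifngr2 did not pass (0.16, adjusted p = 0.0854). Among the transcription factors, Irf1 stood at 144 ± 1.26 CPM in WT and 299 ± 11.1 in AMPK-KO (1.06 on the log2 scale, adjusted p = 3.3e-07) and Irf8 rose by 0.40 (adjusted p = 9.5e-05). The feedback inhibitor Socs1 rose from 14.9 ± 1.79 to 42.1 ± 2.46 CPM (1.498, adjusted p = 3.1e-06), and Nlrc5, the transactivator of MHC class I genes, by 0.71 (adjusted p = 2.4e-05).

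In late-stage TAMs most genes of this list did not pass. Ifng was higher (10.5 ± 0.283 against 7.37 ± 0.409 CPM, log2 fold change 0.50, adjusted p = 0.0274), and Ifngr1 was lower (-0.24, adjusted p = 0.0474), as was the phosphatase gene Ptpn2 (-0.29, adjusted p = 0.0486), named after its value was seen. The other 12 genes did not pass, among them Irf1 (-0.23, adjusted p = 0.271), Irf8 (-0.03), Socs1 (-0.25) and Nlrc5 (0.21, adjusted p = 0.214). Without early-stage replicate 2 or any late-stage replicate, 0 genes of the list were lower, and Ifng was not called either (log2 fold change 0.46 to 0.53, adjusted p of 0.0708 to 0.120). Of all genes tested, 2.01% to 2.57% were lower in those fits.

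The IRGs, which act with GBPs at vacuoles, were higher in AMPK-KO TAMs and mostly lower in late-stage TAMs. In AMPK-KO TAMs all 8 were higher, with a median log2 fold change of 0.88. Igtp (0.99, adjusted p = 5.1e-07), Tgtp1 (1.14, adjusted p = 9.9e-07), Tgtp2 (1.00, adjusted p = 6.6e-07) and Iigp1 (1.11, adjusted p = 2.4e-06) had the smallest p-values. In late-stage TAMs 7 of 8 were lower, with a median of -0.45, led by Tgtp1 (95.9 ± 6.39 early, 54.8 ± 1.81 CPM late, -0.81, adjusted p = 2.7e-04) and Tgtp2 (-0.56, adjusted p = 0.0019), while Iigp1 (-0.16) did not pass. The count of 7 fell to 4 without early-stage replicate 2, late-stage replicate 1 or late-stage replicate 3, and to 3 without late-stage replicate 2. Over all genes tested, 2.01% to 2.57% were lower in those fits.

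Of 10 target genes that respond mainly to IFN-γ, 9 were higher in AMPK-KO TAMs, with a median log2 fold change of 1.32. H2-Aa rose by 1.39 (adjusted p = 3.0e-08), Cd74 by 1.25 (adjusted p = 4.1e-08), H2-Ab1 by 1.42 (adjusted p = 2.4e-07) and Ciita, the transactivator of MHC class II genes, by 1.47 (adjusted p = 2.7e-07). Of 11 genes that respond mainly to type I interferon, AMPK-KO TAMs had 5 higher and 1 lower, with a median of 0.12. Irf7 (0.38, adjusted p = 1.8e-04) and Mx1 (0.38, adjusted p = 2.9e-04) were higher, Rsad2 was lower (-0.24, adjusted p = 0.0077) and Ifit1 did not pass (0.09, adjusted p = 0.381). In late-stage TAMs, 5 of the 10 were lower and 1 higher (median -0.45), with H2-Aa at -0.55 (adjusted p = 7.9e-04) and Cd74 at -0.45 (adjusted p = 0.0034). H2-Ab1 (-0.42, adjusted p = 0.0666) and Ciita (-0.39, adjusted p = 0.0626) did not pass. Of the 11, 6 were lower (median -0.33), with Ifit1 at -0.88 (adjusted p = 0.0015) and Rsad2 at -0.61 (adjusted p = 0.0011). Without late-stage replicate 2 the first count was 3, and without early-stage replicate 2 or any late-stage replicate the second was 3. Of all genes tested, 2.01% to 2.57% were lower in those fits. The lists overlap in what induces them, since many of these genes answer to both kinds of interferon.

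**Figure D5:**
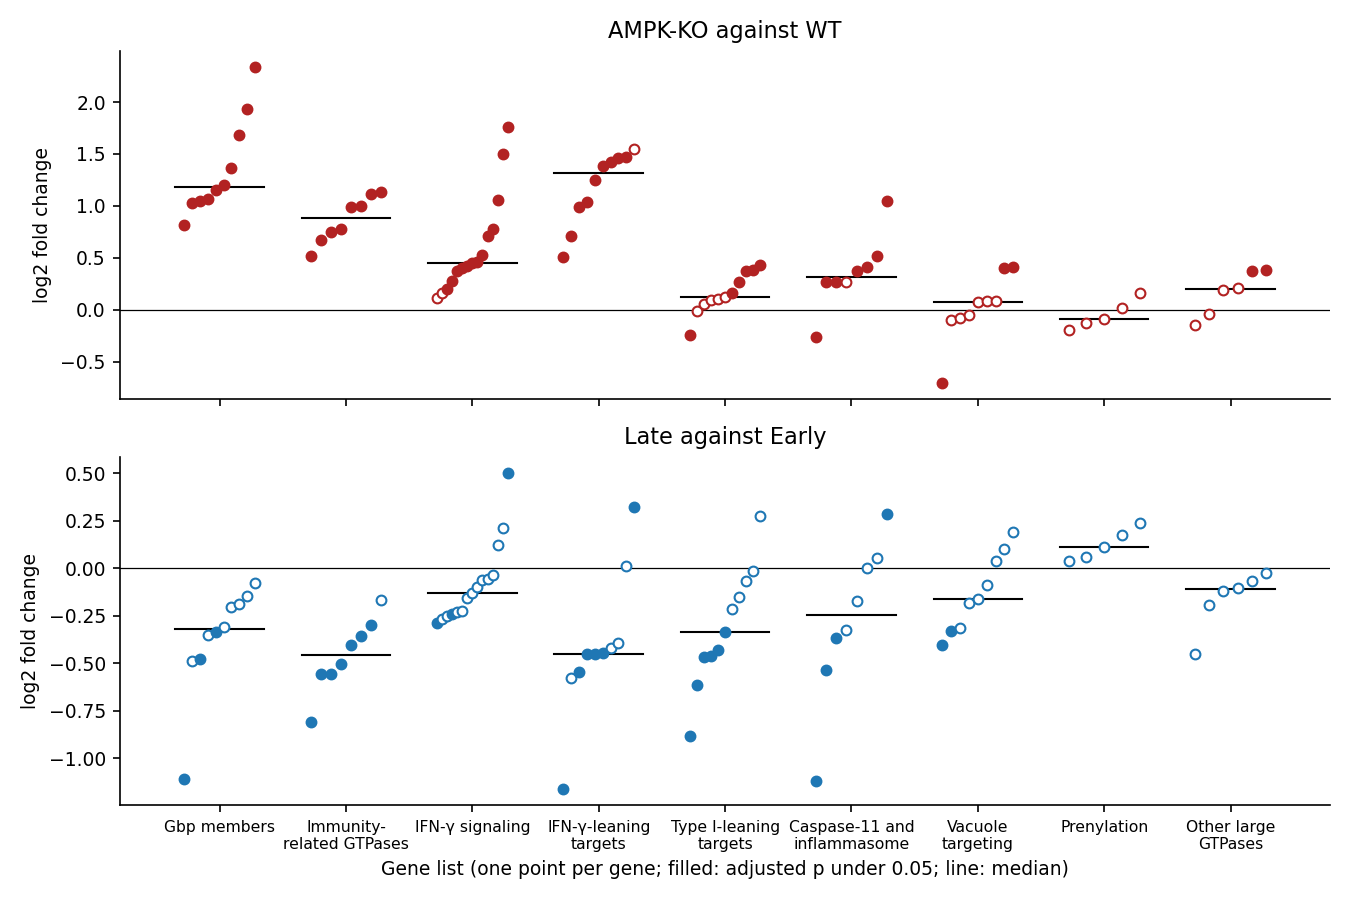
Log2 fold change of every gene of the GBP and pathway lists in AMPK-KO against WT (top) and late- against early-stage TAMs (bottom), 1 point per gene, filled for an adjusted p under 0.05, with a line at the list median. The medians of the GBPs are 1.18 and -0.32, those of the IRGs 0.88 and -0.45 and those of IFN-γ signaling 0.45 and -0.13.

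Genes through which GBPs are known to act moved less evenly. Of 8 caspase-11 and inflammasome genes, AMPK-KO TAMs had 6 higher and 1 lower (median log2 fold change 0.32). Il1b rose by 1.05 (adjusted p = 2.6e-07), the pore-forming Gsdmd by 0.52 (adjusted p = 1.3e-04), Casp4, which encodes caspase-11, by 0.41 (adjusted p = 6.1e-04) and the DNA sensor gene Aim2 by 0.37 (adjusted p = 0.0050). Il18 was the lower gene (-0.26, adjusted p = 0.0433), named after its value was seen. It kept its call without WT replicate 1 and lost it without each of the other 5 libraries (-0.28 to -0.23, adjusted p of 0.0696 to 0.148). In late-stage TAMs 3 were lower and 1 higher, with Il1b at -1.12 (adjusted p = 3.4e-04) and Casp4 at -0.53 (adjusted p = 0.0170), while Gsdmd (0.06) and Aim2 (8.4e-04) did not pass. Only 1 was lower without early-stage replicate 2, late-stage replicate 2 or late-stage replicate 3, while 2.01% to 2.17% of all genes tested were.

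For the enzymes that attach and process the lipid anchor, edgeR called 0 of 5 in either comparison, 0 at an unadjusted p under 0.05 and 0 by DESeq2. Their medians were -0.09 in AMPK-KO and 0.11 in late-stage TAMs, with Pggt1b at 0.16 (SE 0.08) and 0.06 (SE 0.09). Without AMPK-KO replicate 3 the first comparison called 1 higher, and without early-stage replicate 1 so did the second. Of all genes tested, 9.56% and 8.24% were higher in those fits. Of 9 genes that target GBPs to vacuoles or act there, AMPK-KO TAMs had 2 higher and 1 lower. Trim21 (0.42, adjusted p = 0.0050) and Rnf213 (0.40, adjusted p = 0.0154), both ubiquitin ligase genes, were higher. The autophagy receptor gene Sqstm1 was lower (784 ± 20.7 to 481 ± 12.7 CPM, -0.71, adjusted p = 2.0e-06), and in late-stage TAMs it was lower too (-0.33, adjusted p = 0.0474), with Tax1bp1 (-0.40, adjusted p = 0.0282). The higher genes in AMPK-KO numbered 1 without WT replicate 3, AMPK-KO replicate 1 or AMPK-KO replicate 2, and the lower genes late numbered 0 without early-stage replicate 2 or any late-stage replicate. Of all genes tested, 7.35% to 7.64% were higher in the former fits and 2.01% to 2.57% lower in the latter. Of 6 other large GTPases, Mx1 and Gvin1 (0.39, adjusted p = 0.0051) were higher in AMPK-KO TAMs. In late-stage TAMs edgeR called 0 of the 6, with 1 at an unadjusted p under 0.05 and 1 lower by DESeq2.

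Markers of other cell types also differed, some in the direction of the GBPs and some against it. The methods define TAMs by the gate CD45+CD11b+Ly6C-Ly6G-F4/80+, while supplementary legends of the paper write Ly6C+. The purity of the sorted cells is not given in the sources used here. The 7 NK cell markers were all higher in AMPK-KO (summed CPM 48.6 to 53.5 in WT, 135 to 137 in AMPK-KO), and 6 of 7 were lower in late-stage TAMs (129 to 141 early, 61.5 to 79.3 late). Of 8 T cell markers, 7 were higher in AMPK-KO (111 to 126 against 203 to 208 CPM), and 4 were higher in late-stage TAMs (178 to 194 against 226 to 263 CPM). Of 5 monocyte markers, 3 were higher in AMPK-KO (446 to 488 against 774 to 803 CPM) and 4 lower in late-stage TAMs (519 to 608 against 209 to 238 CPM). Of 6 dendritic cell markers, 5 were higher in AMPK-KO (63.7 to 73.7 against 96.2 to 102 CPM) and 1 in late-stage TAMs (77.01 to 80.8 against 86.0 to 93.5 CPM). Of 5 B cell markers, 4 were lower and 1 higher in AMPK-KO (30.9 to 32.5 against 19.9 to 22.1 CPM). Their log2 fold changes there ran from -6.47 to 0.39, with a median of -5.01. In late-stage TAMs 3 of the 5 were higher (37.3 to 41.8 against 57.5 to 82.9 CPM). The 6 melanoma markers were all lower in AMPK-KO (919 to 926 against 615 to 645 CPM), and 4 were lower in late-stage TAMs (1546 to 1667 against 701 to 1133 CPM). The 5 fibroblast markers were all higher in AMPK-KO (569 to 616 against 740 to 819 CPM), and 3 were lower in late-stage TAMs (798 to 876 against 391.9 to 553 CPM). Of 6 neutrophil markers, 3 of 5 tested were higher in AMPK-KO (95.1 to 102 against 158 to 161 CPM) and 2 of 4 tested lower in late-stage TAMs (73.8 to 87.0 against 64.4 to 79.4 CPM), with Ly6g at 0 in 11 of the 12 libraries. Of 4 endothelial markers, 2 were higher and 1 lower in AMPK-KO (49.95 to 57.9 against 116 to 119 CPM), and 1 was lower in late-stage TAMs (83.6 to 87.7 against 76.2 to 80.4 CPM). Of 9 macrophage markers, 2 were higher and 1 lower in AMPK-KO (12090 to 13477 against 12279 to 12650 CPM), and 1 was higher in late-stage TAMs (9381 to 11690 against 12388 to 12515 CPM). The part of these cells in the GBP differences was not tested.

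The 5 non-member genes whose pair of log2 fold changes lay nearest to the members' median pair (1.18 and -0.32), over 16812 genes tested in both tables, were Gpr82, Gm10101, Gm28373, H2-DMb2 and Hrh2. H2-DMb2, an MHC class II peptide-loading gene, had 1.15 and -0.33, and Hrh2, the histamine H2 receptor gene, 1.20 and -0.35. None of the 5 passed in late- against early-stage TAMs (adjusted p of 0.0862 to 0.893). In AMPK-KO against WT, Gm10101 did not pass either (adjusted p = 0.443). Gpr82 lay nearest (1.17 and -0.31). The Euclidean distances of these genes ranged from 0.0109 to 0.0375, and those of the members themselves from 0.0286 for Gbp5 to 1.41 for Gbp2b.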

How the data were processed

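The deposited values were raw counts per gene in 1 table per experiment. The authors mapped reads with HISAT2 and counted them with featureCounts. The labels name the build mm10 (GRCm38), and versions, strand setting and the treatment of multiply mapped reads are not given in the sources used here. Of 55401 identifiers, 54349 matched GENCODE M21 with their version, including all members. No column was left unused.

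The members and gene lists were chosen with earlier results of these data known, so their counts are no independent support. Each table was filtered with filterByExpr, scaled by TMM and tested with glmQLFit and glmQLFTest of edgeR 4.0.16 in R 4.3.3, without covariates, which left 17532 and 17630 genes. Genes with a Benjamini-Hochberg adjusted p under 0.05 were called. The SE was the log2 fold change divided by the root of the F statistic. RPKM used union exon lengths. The test was tried on simulated counts first. Named genes were the members, other Gbp symbols, at most 4 genes per list with the smallest adjusted p plus genes of the pathway core (Irf1, Irf8, Socs1, Ifng, Ifngr1, Ifngr2, Casp4), genes within 200 kb of the clusters and the 5 genes nearest to the members' median pair. Of the genes this rule names, 1 is not reported here.

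Alternatives were DESeq2 1.42.0, scaling by RLE or upper quartiles, other count filters, a replicate block, each library left out, and a sum of Gbp6, Gbp10 and Gm43302, which was chosen after seeing the data. Replicate pairs all differed by more than sampling noise.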

Additional observations from a re-analysis of the deposited data

How the results depend on the processing

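In AMPK-KO against WT, all 10 members were higher under every alternative tried, with adjusted p of at most 0.0073 (Gbp10). Of all genes, 5.69% to 13.2% were higher in those fits. The count of members past a log2 fold change of 1 was 9, or 8 without WT replicate 1 or WT replicate 2. In late- against early-stage TAMs, 3 members were lower, against 5 by DESeq2 with adjusted p and 7 with unadjusted p, and from 1 to 6 when single libraries were left out. Of all genes, 4.88% were lower in edgeR's fit and 1.82% without filtering. DESeq2 gave 4.62% with adjusted p and 8.21% with unadjusted p. Fits without single libraries gave 2.01% to 7.19%. Gbp2b was called under every alternative tried, with adjusted p of at most 0.0107. Without filtering beyond 1 count Gbp5 had an adjusted p of 0.0588. Gbp2 ranged from -0.13 (without early-stage replicate 1) to 0.0049 (without early-stage replicate 3). Of the IFN-γ signaling genes, 2 were lower in late-stage TAMs, against 4 by DESeq2 with unadjusted p, 0 without filtering, and 0 to 2 when single libraries were left out. The cause of these shifts was not tested.

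No pairing by replicate number was seen, with correlations of same-numbered libraries from -0.004 to 0.042 and of other pairs from -0.061 to 0.047. With 3 libraries per group, this check cannot exclude pairing. With the replicate block, Gbp5 lost its call in late-stage TAMs (adjusted p = 0.0568) and 0 IFN-γ signaling genes were lower, while 10 members stayed higher in AMPK-KO. Ifng lost its late-stage call as well (log2 fold change 0.50, adjusted p = 0.0538). Of all genes, 4.21% were lower in late-stage TAMs in that fit. Over all genes, the AMPK-KO comparison called 1978 higher and 1715 lower, against 3030 and 2899 by DESeq2 with unadjusted p, and 1334 to 2102 higher and 1068 to 1937 lower when single libraries were left out. The stage comparison called 759 and 860, against 1180 and 1287 by DESeq2, 2339 and 2286 with unadjusted p, 429 and 507 without filtering, and 284 to 1514 higher and 369 to 1321 lower when single libraries were left out. DESeq2 and the fits without filtering covered 27518 genes in the AMPK-KO comparison and 27856 in the stage comparison. The lowest count of a member in a library was 424 (Gbp10 in WT replicate 1).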
